A study of Rattus norvegicus with 13 samples.

Results

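The proteins that fold, oxidise and check secretory proteins in the endoplasmic reticulum (ER) were described here through 37 rat genes, chosen by name as chaperones, lectin cycle proteins, disulfide and prolyl isomerases, degradation factors, stress sensors and translocon subunits. Of the 37 genes, 36 had a probe on the array under the listed name, all 36 were tested, and all 36 lay well above background on every array. The degradation factor Derl2 had no probe under that name. These 36 probes belong to 25717 tested of 45598 on the array. For genes with more than 1 probe the brightest was taken. Levels are log2 intensities minus that of the array's 75th percentile, so that a value of 0 is the level of that percentile, and differences are on the same log2 scale. Ero1l, Ero1lb and Vimp are the array's names for Ero1a, Ero1b and Selenos.

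Agilent one-colour arrays carried thyroid RNA from 13 male Wistar rats taken 51 days after birth, of which 7 were controls and 6 were KI-treated. Their mothers had been given potassium iodide (KI, 1 mg/kg/day), or saline in the control group, by gavage over 8 days of pregnancy that began on gestational day 9, so the progeny themselves were exposed before birth only. The mothers' litters are not named in the sources used here, and p-values measure the spread between these animals, some of which may be littermates. The study asked whether repeated iodide given to the mother leaves a trace in the thyroid of the young.

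Thyroglobulin (Tg), the precursor of thyroid hormone, is a very large glycoprotein that the follicular cell makes in great quantity. It enters the ER through the Sec61 channel, is bound by the chaperones Hspa5 (BiP) and Hsp90b1 (GRP94) and by the lectins Calr and Canx, and receives many disulfide bonds from protein disulfide isomerases before it can leave for the follicle. When unfolded protein accumulates, the sensors Ern1 (IRE1), Eif2ak3 (PERK) and Atf6 start the unfolded protein response, in which the transcription factors Xbp1, Atf4 and cleaved Atf6 raise the chaperones and the degradation machinery (ERAD).

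Many of these genes are known targets of Atf6 and Xbp1 through the ER stress response element (ERSE), which reads CCAAT, then 9 bases of any kind, then CCACG. The sequences are shown because the element is the best known feature that the chaperone promoters share. The RefSeq promoter table of the GRCr8 build, from 250 bases before to 50 bases after each gene start, held 29 of the 37 genes. The element, searched on both strands, was in 8 of the 29 genes (27.6%), against 21 of all 27457 genes in the table (0.0765%). Each stretch below is read 5′ to 3′ on the strand of the gene, with the whole element in capitals. Hsp90b1 has the element at 2 places.
Hspa5, chr3:38452958-38453006, plus strand: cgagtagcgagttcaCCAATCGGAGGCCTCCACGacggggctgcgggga
Hsp90b1, chr7:23012436-23012484, minus strand: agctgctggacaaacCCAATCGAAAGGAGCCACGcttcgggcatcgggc
Hsp90b1, chr7:23012332-23012380, minus strand: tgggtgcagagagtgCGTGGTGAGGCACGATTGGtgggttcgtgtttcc
Dnajc3, chr15:102432519-102432567, plus strand: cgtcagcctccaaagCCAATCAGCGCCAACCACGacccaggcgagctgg
Calr, chr19:40213120-40213168, plus strand: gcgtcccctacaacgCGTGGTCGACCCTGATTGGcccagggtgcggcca
Canx, chr10:35158054-35158102, minus strand: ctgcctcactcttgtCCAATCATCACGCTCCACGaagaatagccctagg
Ero1lb, chr17:92941443-92941491, plus strand: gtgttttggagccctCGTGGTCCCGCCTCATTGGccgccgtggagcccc
Creld2, chr7:121789224-121789272, plus strand: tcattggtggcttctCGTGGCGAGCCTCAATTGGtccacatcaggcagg
Xbp1, chr14:84604543-84604591, plus strand: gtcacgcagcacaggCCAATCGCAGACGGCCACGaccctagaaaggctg

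In Hspa5, Dnajc3, Canx and Xbp1 the element read in the direction of the gene, in Calr, Ero1lb and Creld2 in the opposite one, and Hsp90b1 had one of each. The unfolded protein response element (UPRE) TGACGTGG, whose last 5 letters are also the reverse complement of the end of ERSE, was in 1 of the 29 genes (Hyou1), against 0.681% of all genes. The Atf4 element TGATGNAAN, searched on both strands, was in Herpud1 and Trib3, which is 6.90% of the 29 genes against 4.14% of all genes. Of 89 other ER genes listed for comparison, 75 were in the promoter table. Among these, ERSE was in 1 (1.33%) and the Atf4 element in 4 (5.33%). UPRE was in 7 of them (9.33%), against 3.45% of the members. A match describes letters in this window and not a bound site.

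The labelled tissue was borne out by its markers. Of 12 follicular cell genes, 11 lay well above background on all 13 arrays, and 1 (Slc26a4) on none. Other tissue was present to a varying degree. The log2 of the summed level of 10 skeletal muscle markers ran from 2.15 to 6.36 in the KI-treated animals and from 4.50 to 7.59 in the controls, and the T cell and thymocyte genes Cd3e, Cd8a, Rag1 and Dntt lay well above background in KI-treated animal 1 only. The summed level of 7 plasma cell markers, a secretory cell rich in ER, ran from 3.70 to 5.08 and from 3.74 to 5.06. The brightest of the 7 were Derl3 and Fkbp11, which are themselves ER genes and are also among the other ER genes below. Mzb1 lay well above background on 3 arrays and Tnfrsf17 on 0. The summed level of 2 parathyroid markers ran from 8.25 to 8.69 in the KI-treated animals and from 8.55 to 9.25 in the controls. It was highest in controls 6 and 4. That of 3 C cell markers ran from 7.33 to 8.07 and from 6.65 to 8.04, lowest in controls 4 and 6. Among them Calca was lowest in control 4 and Chga in control 2. In whole tissue, fewer cells of a type and less RNA per cell cannot be told apart. Controls 4 and 6 stood apart from the other arrays. Their 75th percentiles (log2 8.18 and 7.92) were the lowest of the 13, against 8.48 to 9.10 on the other arrays, and their Tg levels were the highest. Both were scanned in the first of 3 sessions, beside KI-treated animals 2 and 3, and lay on different slides.

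The ER folding genes differed more between the animals than most genes did. The within-group SD of the 36 members had a median at the 68.7th percentile of the 20714 probes well above background and complete on all arrays, and 13 of the 36 lay above the 80th percentile. The widest were Pdia3, an isomerase that works with the lectins on glycoproteins (SD 0.83), Creld2, a small secreted protein of the stress response (SD 0.74), Hspa5 (SD 0.67) and Calr (SD 0.66). The SD without controls 4 and 6 was 0.54 for Pdia3, 0.80 for Creld2, 0.62 for Hspa5 and 0.46 for Calr, and Pdia4 (0.58) then lay above both Pdia3 and Calr. From the lowest to the highest animal Creld2 spanned 5.95-fold, with both ends in the KI-treated group. The stress factor Atf4 (SD 0.22) and the ubiquitin ligase Syvn1 (SD 0.24) were among the narrowest, and Syvn1 spanned 1.75-fold. Tg itself spanned 1.72-fold (SD 0.19).

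Single animals were high or low in most of these genes at once. KI-treated animals 1, 4 and 6 had 27, 26 and 27 of the 36 members above the gene's own median over the 13 arrays, and control 2 had 25. KI-treated animals 2 and 5 and control 1 had 31, 32 and 29 members below it. High and low animals thus occurred in both groups. The muscle markers differed between these animals too, with the lowest summed levels in KI-treated animals 4 (2.15) and 1 (3.45) and the highest in control 5 (7.59), where 24 members lay below their median. The summed level of the plasma cell markers was highest in KI-treated animal 4 (5.08), control 4 (5.06) and KI-treated animal 1 (4.86). It was lowest in KI-treated animal 2 (3.70) and control 7 (3.74), with KI-treated animal 6 (4.20) and control 2 (4.09) between them. That sum is mainly the level of the ER gene Derl3 (4.69 in KI-treated animal 4). Igj was highest in KI-treated animal 1 (-1.14) and control 4 (-1.55) but was -2.53 in KI-treated animal 4. The part of either marker list in the result was not tested.

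**Figure D1:**
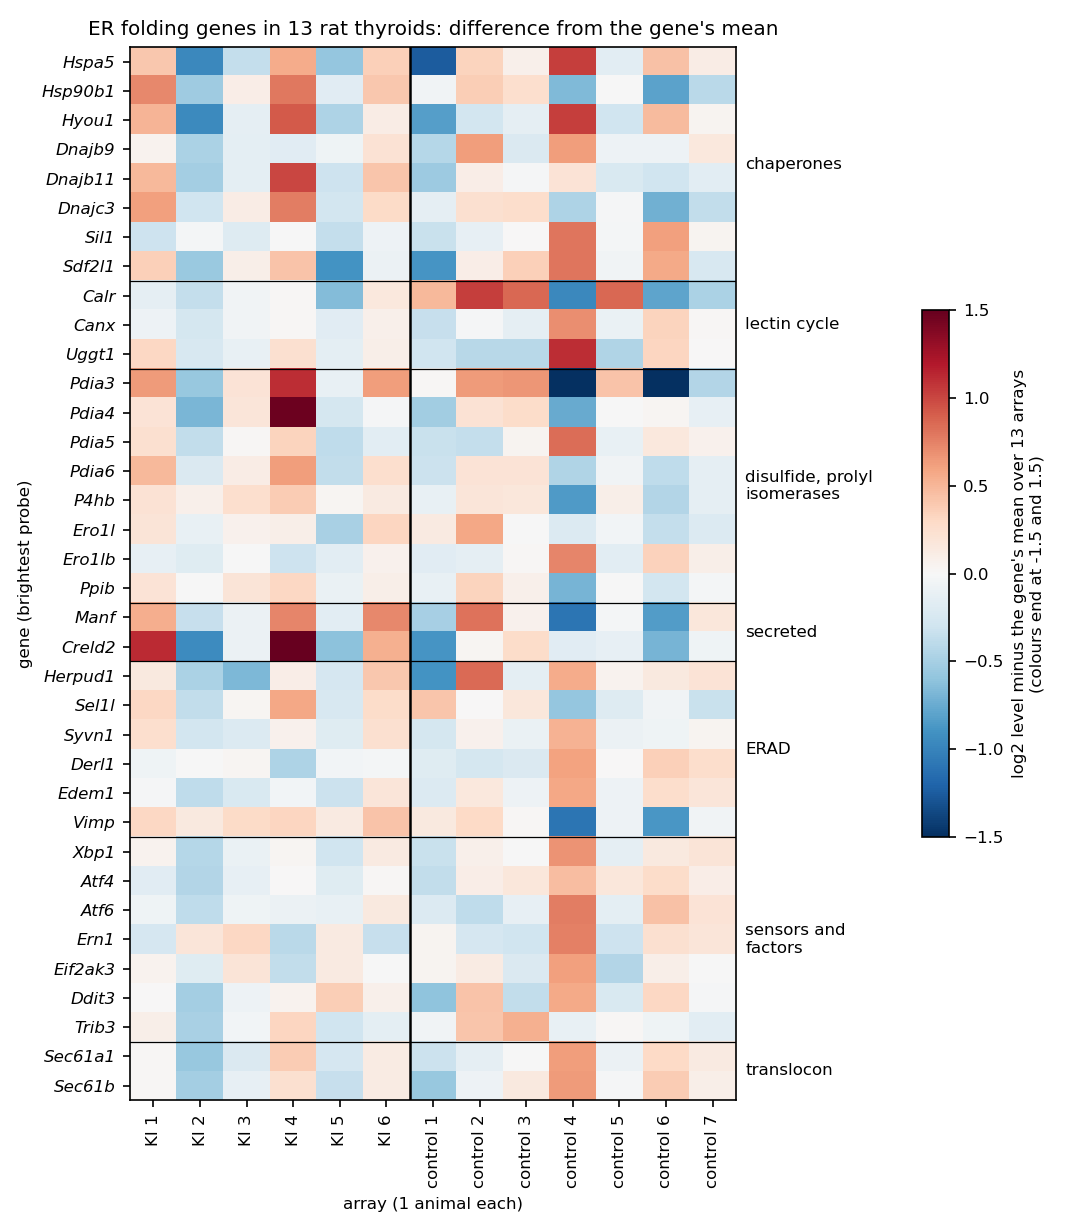
Log2 level of the 36 genes (rows, by role) minus the gene's mean, on the 13 arrays (columns, 6 KI-treated left of the line and 7 control right of it), in colour from -1.5 to 1.5. KI-treated animals 1, 4 and 6 are above the mean in most rows and KI-treated animals 2 and 5 and control 1 below it, while controls 4 and 6 are split, with Pdia3, Calr, Manf and Vimp low and Hspa5, Hyou1, Uggt1 and Sil1 high.

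Creld2 shows the range. Its level was 4.94 in KI-treated animal 4 and 4.43 in KI-treated animal 1, against 2.37 in KI-treated animal 2, 2.69 in KI-treated animal 5 and 2.42 in control 1. Dnajb11, a cochaperone of Hspa5, was high and low in the same animals, with 3.48 and 2.95 in KI-treated animals 4 and 1 against 1.96, 2.17 and 1.93. Hspa5, the chaperone that holds the sensors inactive, was 7.29 and 7.14 in KI-treated animals 4 and 1 and 5.76, 6.15 and 5.48 in KI-treated animals 2 and 5 and control 1, but its highest level was that of control 4 (7.77).

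With the group means removed, the 630 pairs of the 36 genes had a median correlation over the 13 animals of 0.36 (mean 0.25), where the mean over all pairs of the 20714 probes was 0.031. Without controls 4 and 6 the median was 0.50 (mean 0.39), and the mean over all probe pairs was 0.0082. Correlations over 0.7 numbered 166 and 173, and correlations under -0.7 numbered 34 and 10. These values are descriptions over animals that share array, scaling and tissue makeup, and no p-value is given for them. The pairs named next were chosen after their values were seen.

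Close pairs joined chaperones with each other and with proteins of other roles. Hsp90b1 and Dnajc3, a cochaperone that also restrains Eif2ak3, had r = 0.98 over 13 animals and 0.97 over 11. Creld2 and Dnajb11 had r = 0.94 and 0.97. Hyou1, the exchange factor of Hspa5, went with the channel subunit Sec61a1 (r = 0.97 and 0.96), and Xbp1 with Edem1, which hands glycoproteins to degradation (r = 0.96 and 0.93). Among all 20713 other probes so compared, Dnajc3 ranked first for Hsp90b1 and Hsp90b1 first for Dnajc3, both over 13 and over 11 animals. Other pairs depended on controls 4 and 6. Hspa5 and Pdia3 had r = -0.05 over 13 animals and 0.71 over 11, Hspa5 and Hsp90b1 had 0.23 and 0.73, and Calr and Canx, both lectins of the same cycle, had -0.64 and 0.13. These pairs are of the brightest probes. The other probes of Edem1 correlated with its brightest at r = 0.38 and 0.24, and that of Canx at r = 0.15. All lay well above background on all 13 arrays.

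By role, the median correlation of the 28 chaperone pairs was 0.52 over 13 animals and 0.73 over 11. The 28 isomerase pairs had 0.58 and 0.62. The 21 pairs of sensors and factors had 0.54 over 13 animals and 0.15 over 11. Ern1 ran against the others: over 11 animals 32 of its 35 correlations were below 0, with a median of -0.60, and with Pdia3 it had r = -0.88 over 13 animals and -0.87 over 11. Eif2ak3 and Derl1, a channel protein of degradation, had 24 and 25 of 35 correlations below 0 over 11 animals. Over 13 animals the 3 genes had 17, 15 and 15 of 35 below 0. Xbp1 and Atf4, by contrast, had 34 and 32 of 35 correlations above 0 over 11 animals. These values are those of the brightest probes. The second probe of Ern1, well above background on 8 arrays, correlated with the brightest at r = 0.19, and that of Eif2ak3 was well above background on 3 arrays and was not tested.

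**Figure D2:**
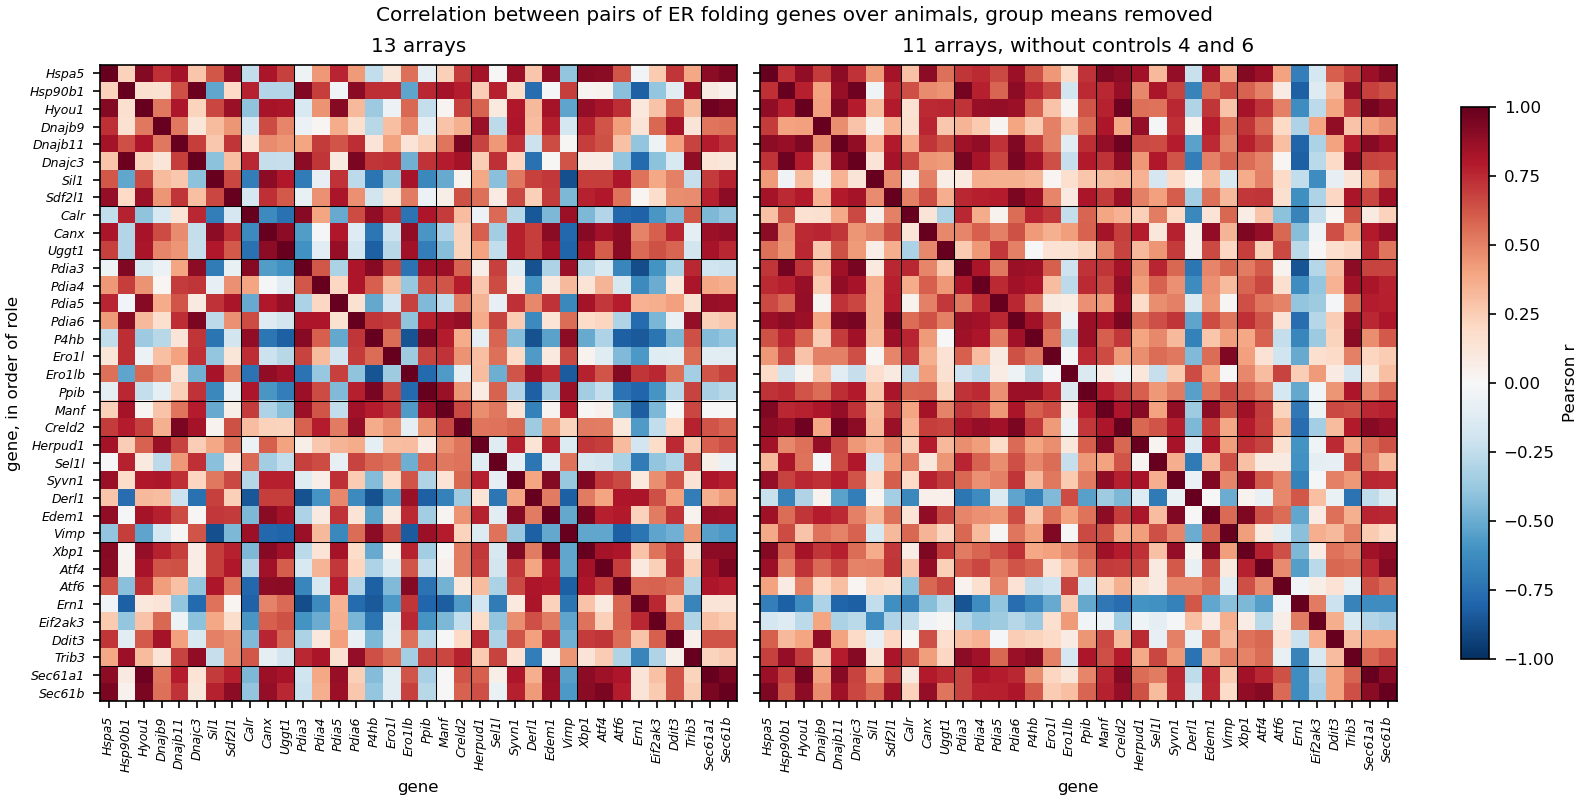
Pearson correlation between pairs of the 36 genes (both axes, in order of role, black lines between roles) over 13 animals (left) and over 11 without controls 4 and 6 (right), group means removed. On the left the genes split into blocks of opposite sign, and on the right all but Ern1, Eif2ak3, Derl1 and a few single genes are positively correlated, with a median of 0.50.

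Between the groups, no gene passed the threshold. Of the 25717 tested probes, 0 passed 0.05 in limma after Benjamini-Hochberg adjustment, and 3271 did so before it, with 1469 (5.71%) above and 1802 (7.01%) below the controls. That split depended on the scaling, with 1823 above and 1432 below after quantile normalization, 1789 and 1109 with the 75th percentile taken over spots, and 1166 and 3427 with normexp background correction. Of the 36 members, 1 was higher (2.78%) and 0 were lower before adjustment, which is below the share of all probes in both directions. The members' median difference was -0.076, that of all tested probes -0.078, and 14 of the 36 were above 0. The lowest adjusted p of a member was 0.376.

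The member with the smallest p was Vimp (selenoprotein S), a membrane protein that anchors the degradation complex. Vimp ranged from 2.93 to 3.23 in the KI-treated animals, with a median of 3.11, and from 1.70 to 3.101 in the controls, with a median of 2.76. All 6 KI-treated animals lay above the control median, and the groups overlapped. This was a log2 difference of 0.51 (SE 0.21, limma p = 0.0293, adjusted p = 0.376, exact permutation p = 0.0186). Controls 4 (1.70) and 6 (1.93) were far below the other 5 controls, of which the lowest was 2.73. Without both, the difference was 0.21 (SE 0.09, limma adjusted p = 0.528). Within the scan sessions it was 1.21 in the first, which holds controls 4 and 6, 0.07 in the second and 0.36 in the third.

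The disulfide isomerases came next. P4hb, the archetypal protein disulfide isomerase, had a log2 difference of 0.34 (SE 0.16, limma p = 0.0538, adjusted p = 0.397, exact permutation p = 0.0437). P4hb ranged from 5.11 to 5.47 in the KI-treated animals, with a median of 5.27, and from 4.24 to 5.27 in the controls, with a median of 4.97. All 6 KI-treated animals lay above the control median. Controls 4 (4.24) and 6 (4.65) were again the lowest, and without them the difference was 0.14 (SE 0.10). Pdia6 had a log2 difference of 0.28 (SE 0.18, limma p = 0.135, adjusted p = 0.464, exact permutation p = 0.149). Pdia6 ranged from 5.57 to 6.56 in the KI-treated animals, with a median of 6.12, and from 5.48 to 6.14 in the controls, with a median of 5.80. Its KI-treated animals were spread over the range of the controls and above, with animals 4 and 1 highest and animal 5 below 5 of the 7 controls, and without controls 4 and 6 the difference was 0.17 (SE 0.18). Of the 8 genes of this role, 6 had differences above 0, with a median of 0.25, and 0 passed before adjustment. The count was also 6 of 8 under the 5 other scalings and background corrections. Pdia3 had the largest estimate at 0.59 (SE 0.41), which was 0.05 (SE 0.30) without controls 4 and 6.

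Among the chaperones, 3 of 8 differences were above 0, with a median of -0.09, and 4 or 5 of 8 were under the 5 other scalings and background corrections, with a median of 0.07 after quantile normalization. Dnajc3 had a log2 difference of 0.38 (SE 0.21, limma p = 0.0951, adjusted p = 0.431, exact permutation p = 0.124). Dnajc3 ranged from 3.14 to 4.21 in the KI-treated animals, with a median of 3.64, and from 2.71 to 3.70 in the controls, with a median of 3.31. Hsp90b1 had a log2 difference of 0.40 (SE 0.25, limma p = 0.122, adjusted p = 0.451, exact permutation p = 0.155). Hsp90b1 ranged from 5.43 to 6.74 in the KI-treated animals, with a median of 6.21, and from 5.16 to 6.33 in the controls, with a median of 5.91. In both genes KI-treated animals 4 and 1 were the highest and control 6 the lowest, and without controls 4 and 6 the differences were 0.21 (SE 0.21) for Dnajc3 and 0.19 (SE 0.24) for Hsp90b1. Sil1, an exchange factor of Hspa5, had a log2 difference of -0.30 (SE 0.17, limma p = 0.107, adjusted p = 0.441, exact permutation p = 0.136). Sil1 ranged from 5.61 to 5.96 in the KI-treated animals, with a median of 5.83, and from 5.63 to 6.77 in the controls, with a median of 5.97. No KI-treated animal lay above the control median of Sil1, but the difference was -0.07 (SE 0.10) without controls 4 and 6, which had the highest levels (6.77 and 6.58). Hspa5 and Hyou1 had differences of -0.18 (SE 0.33) and -0.0074 (SE 0.32).

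Of the lectin cycle, Calr had a difference of -0.31 (SE 0.33), Canx -0.14 (SE 0.15) and Uggt1, the enzyme that marks unfolded glycoproteins for another round, 0.04 (SE 0.23). Calr had controls 4 (4.84), 6 (5.02) and 7 (5.34) well below the other 4, which lay between 6.30 and 6.85. The 6 KI-treated animals ran from 5.17 to 5.97, all below those 4 controls and overlapping control 7. Without controls 4 and 6 the difference of Calr was -0.72 (SE 0.25, limma adjusted p = 0.452) and that of Uggt1 was 0.34 (SE 0.13, limma adjusted p = 0.469). In that comparison 3.46% of all probes were higher and 5.91% lower before adjustment, and of the 36 members 2 were higher (Vimp and Uggt1) and 1 lower (Calr). The second probe of Uggt1 that lay well above background on all arrays had a difference of 0.58 (SE 0.32), and correlated with the brightest at r = -0.45. That of Canx had a difference of 0.19 (SE 0.23), and correlated with the brightest at r = 0.15.

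The degradation genes, Vimp aside, had differences between -0.25 and 0.18. Edem1 had a log2 difference of -0.25 (SE 0.14, limma p = 0.0962, adjusted p = 0.432, exact permutation p = 0.0886). Edem1 ranged from 2.67 to 3.23 in the KI-treated animals, with a median of 2.92, and from 2.85 to 3.63 in the controls, with a median of 3.21. KI-treated animal 6 (3.23) reached the upper controls and the other 5 lay at 3.03 or below, and without controls 4 and 6 the difference was -0.13 (SE 0.12). The other Edem1 probes had differences of -0.09 (SE 0.19) and -0.11 (SE 0.15). By their brightest probes all 7 sensors and transcription factors had differences below 0, and 0 passed before adjustment. The second probe of Atf6, well above background on all 13 arrays, had 0.15 (SE 0.20) and correlated with the brightest at r = 0.25. Under the 5 other scalings and background corrections, 5 or 6 of the 7 were below 0. On the scale used here the 7 differences ran from -0.28 to -0.03, with a median of -0.17. The largest was that of Atf4, which drives amino acid and redox genes under stress, with a log2 difference of -0.28 (SE 0.13, limma p = 0.0545, adjusted p = 0.398, exact permutation p = 0.0484). Atf4 ranged from 4.50 to 4.96 in the KI-treated animals, with a median of 4.798, and from 4.57 to 5.40 in the controls, with a median of 5.11. No KI-treated animal lay above the control median of Atf4, and control 1 (4.57) lay nearly as low as the lowest KI-treated animal (4.50). Without controls 4 and 6 the difference of Atf4 was -0.18 (SE 0.12), and 4 of the 7 sensors and factors were then above 0. The translocon subunits Sec61a1 and Sec61b had -0.16 (SE 0.18) and -0.18 (SE 0.18). The 8 genes with ERSE held 3 differences above 0 and 5 below it, and the secreted Manf and Creld2 had 0.44 (SE 0.29) and 0.50 (SE 0.37).

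**Figure D3:**
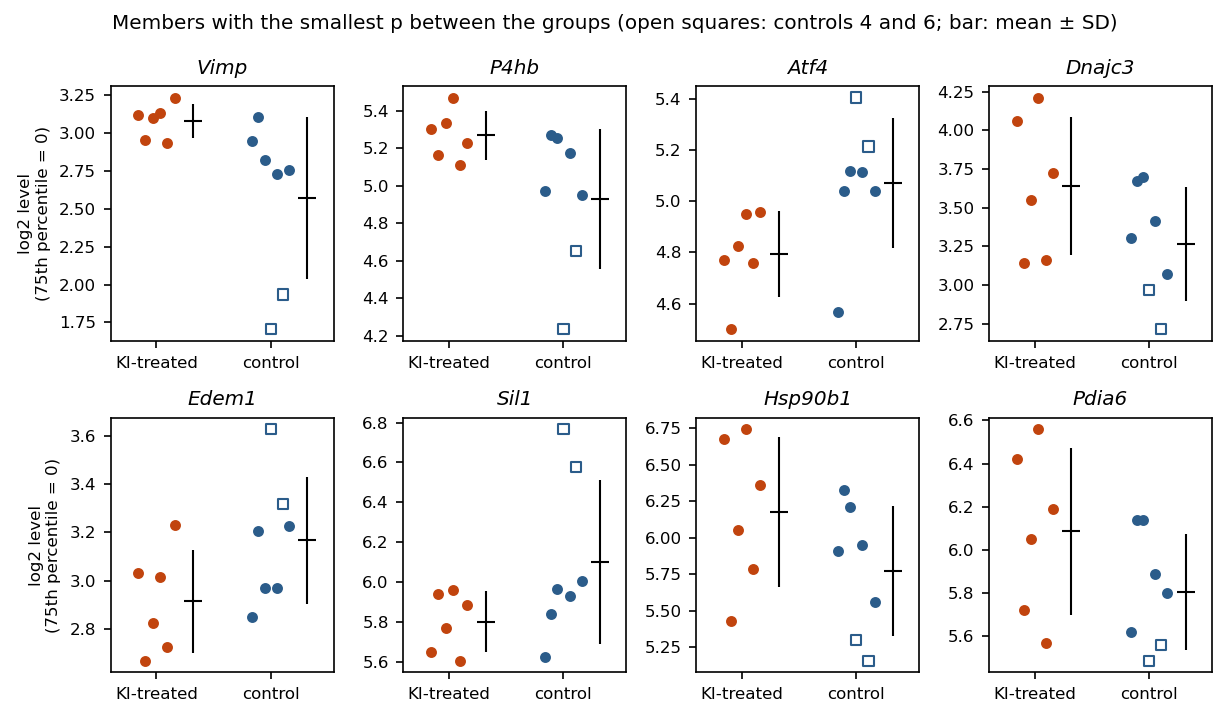
Log2 level (75th percentile of the array = 0) of the 8 members with the smallest p between the groups, 1 point per animal for 6 KI-treated (orange) and 7 control (blue) animals, with mean ± SD beside them. The open squares are controls 4 and 6, which are the lowest controls for Vimp, P4hb, Dnajc3, Hsp90b1 and Pdia6 and the highest for Atf4, Edem1 and Sil1, and the groups overlap in every panel.

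**Figure D4:**
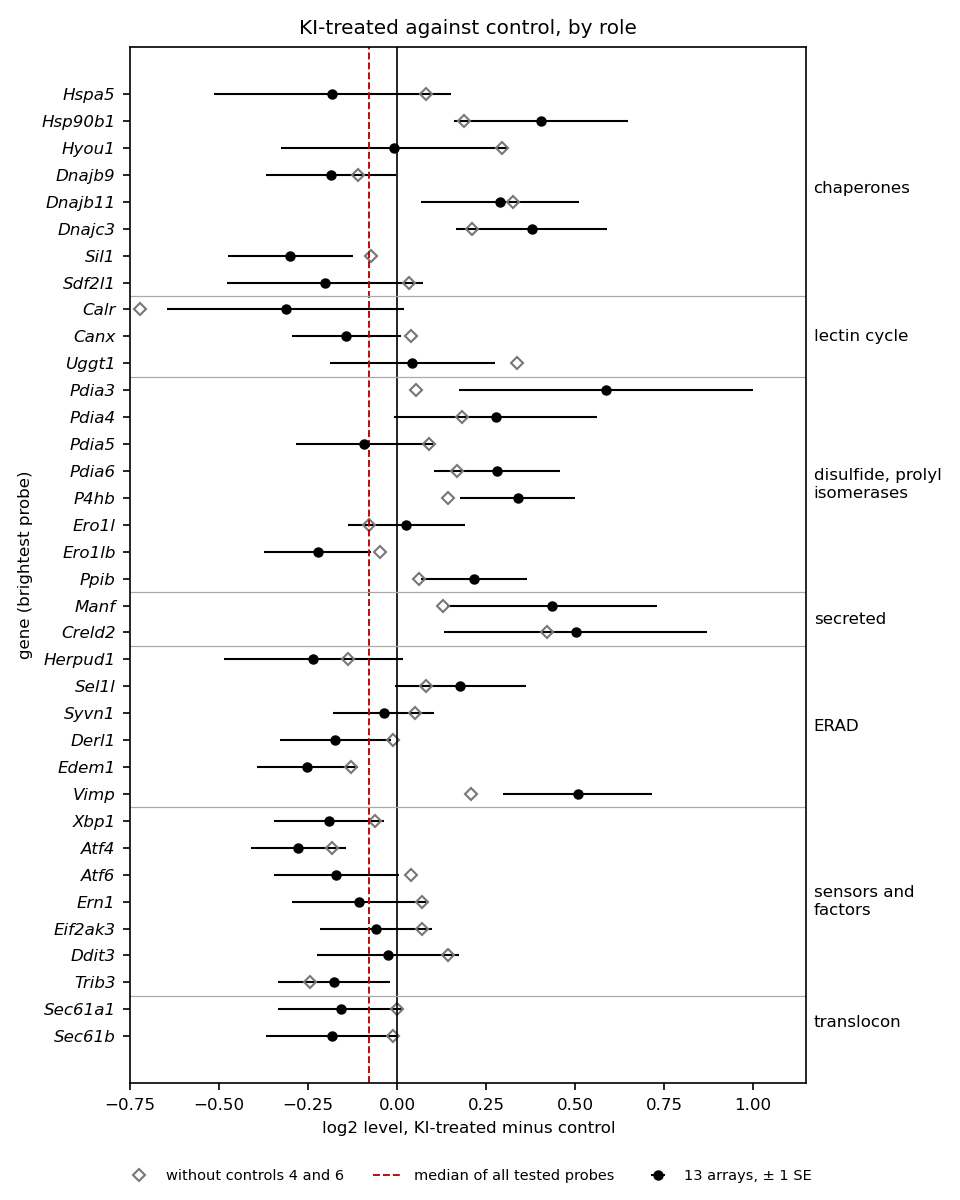
Difference in log2 level, KI-treated minus control, of the 36 genes by role, as points with bars of 1 SE over 13 arrays and as open diamonds without controls 4 and 6, with the median of all 25717 tested probes (-0.078) as a dashed line. By their brightest probes, the 7 sensors and factors lie left of 0 on this scale (5 or 6 of them on the other scales). Most isomerases lie right of 0 over 13 arrays, and most diamonds lie nearer to 0.

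With the scan session as a block, 7 of the 36 members were higher before adjustment (Hsp90b1, Dnajc3, Pdia3, Pdia6, P4hb, Manf and Vimp) and 0 lower, where 8.99% of all probes were higher and 10.9% lower. The slide as a block gave the same 7 genes, with 7.1% of all probes higher and 8.4% lower. The lowest adjusted p of a member was 0.163 and 0.290. Under the session block Pdia3 had a difference of 0.73 (SE 0.28) and Manf, a secreted protein that protects stressed cells, of 0.51 (SE 0.22). Within sessions, Pdia3 differed by 1.43, 0.05 and 0.89, Manf by 0.75, 0.21 and 0.66, P4hb by 0.81, 0.09 and 0.34, Pdia6 by 0.36, 0.18 and 0.62, Hsp90b1 by 0.51, 0.16 and 0.84, and Dnajc3 by 0.50, 0.16 and 0.82. All of these were above 0, but the genes were chosen by their p under the session block, so the shared sign is not separate support. Within slides not all were above 0. On slide 4 the differences were -0.14 for Dnajc3, -0.13 for Pdia3, -0.12 for Hsp90b1, -0.05 for Pdia6 and -0.01 for Vimp. On slide 3 they were -0.18 for Manf, -0.01 for Pdia3 and -0.0033 for P4hb. The other slide differences of these genes were above 0. The first session compares 2 KI-treated animals with controls 4 and 6 alone, and the third compares KI-treated animal 4 with 3 controls.

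Of 89 other ER genes, 86 were tested, and 6 were higher (6.98%) and 1 lower (1.16%) before adjustment, with 0 past the threshold after it. The 6 with the smallest p were Sec13 of the transport coat (0.50, SE 0.17, adjusted p = 0.354), Erlec1, a lectin of degradation (0.62, SE 0.23, adjusted p = 0.358), the prolyl isomerase Fkbp14 (1.09, SE 0.40, adjusted p = 0.358), the thioredoxin-like Txndc12 (0.47, SE 0.17, adjusted p = 0.359), Ssr2 of the translocon-associated complex (0.58, SE 0.22, adjusted p = 0.359) and the sulfhydryl oxidase Qsox1 (-0.51, SE 0.21, adjusted p = 0.370). These are limma's adjusted p-values. Control 4 was the lowest animal for Sec13, Fkbp14, Txndc12 and Ssr2, and control 6 for Erlec1. None of the 12 listed genes tested as Atf4 targets or stress kinase feedback passed before adjustment.

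The link to Tg was asked of the animals within the groups. Tg lay between 9.80 and 10.12 in the KI-treated animals, with a median of 10.07, and between 10.01 and 10.58 in the controls, with a median of 10.17. Controls 6 and 4 (10.58 and 10.58) were the highest, and the next was control 2 (10.33). No KI-treated animal lay above the control median of Tg, with a log2 difference of -0.26 (SE 0.12, limma p = 0.0476, adjusted p = 0.39, exact permutation p = 0.0303). It was -0.14 without controls 4 and 6, -0.18 with the 75th percentile taken over spots and -0.02 with the deposited log2 values. Tg had 3 probes, all well above background on all 13 arrays, and these values and the link are those of the brightest. The others had differences of -0.32 (SE 0.11) and -0.13 (SE 0.13), and correlated with the brightest of them at r = 0.92 and 0.71. Tg was the brightest probe on 12 of the 13 arrays, and before scaling its log2 intensity spanned 0.45, from 18.50 to 18.95, while the 75th percentile of the arrays spanned 1.18. The scaled Tg level is the log2 intensity minus that percentile, so a negative correlation between them is largely built in by the subtraction. As a description, it was Pearson r = -0.94 and Spearman rho = -0.85 over the 13 arrays. Without controls 4 and 6 that r was -0.85. Before scaling, Tg and the 75th percentile had r = 0.79. Every member is scaled by the same percentile, and for 36 of 36 members the correlation with the percentile had the sign opposite to that with Tg. Since scaled Tg ran so closely against the percentile, these opposite signs are not a separate result.

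With the group in the model, 9 of the 36 members had a positive and 7 a negative slope on Tg at an unadjusted p under 0.05, where 18.8% and 12.9% of all 25714 probes did. After adjustment 0 members passed in either direction, and of all probes 0 passed with a positive and 2 with a negative slope (0.00778%). The smallest p values belonged to 4 genes with negative and 4 with positive slopes. A slope is the change in the log2 level for 1 unit of Tg on the log2 scale, while Tg itself spanned 0.78.

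On the negative side were genes that were low in controls 4 and 6. The correlations r and rho that follow were taken over the animals of both groups with no group term. Pdia3 had a slope of -3.30 (SE 0.84, limma adjusted p = 0.0628). Over all 13 animals it had r = -0.77 (permutation p = 0.00335) and rho = -0.45 (permutation p = 0.124), and r = -0.26 without controls 4 and 6. P4hb had a slope of -1.18 (SE 0.34, limma adjusted p = 0.065), with r = -0.84 (permutation p = 0.00061) and rho = -0.70 (permutation p = 0.0101), and r = -0.51 without controls 4 and 6. Vimp had a slope of -1.505 (SE 0.46, limma adjusted p = 0.0713), with r = -0.81 (permutation p = 0.00393) and rho = -0.53 (permutation p = 0.0646), and r = -0.15 without controls 4 and 6. Calr had a slope of -2.22 (SE 0.79, limma adjusted p = 0.0906). Its correlation over all 13 animals was r = -0.34 (permutation p = 0.259) and rho = -0.24 (permutation p = 0.426), and r = 0.35 without controls 4 and 6, where its slope with the group in the model was -0.01 (SE 1.18). Of these, P4hb had the largest negative r without controls 4 and 6, although its slope with the group in the model was then -0.39 (SE 0.43), and as a description its r was -0.93 within the 6 KI-treated animals and -0.75 within the 7 controls.

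On the positive side, Ero1lb, an oxidase that recharges the isomerases, had a slope of 1.03 (SE 0.33, limma adjusted p = 0.0756), with r = 0.79 (permutation p = 0.00254) and rho = 0.53 (permutation p = 0.0681), and r = 0.31 without controls 4 and 6. The second probe of Ero1lb, well above background on all 13 arrays, had a slope of -0.29 and correlated with the brightest at r = 0.12. Eif2ak3 had a slope of 1.08 (SE 0.35, limma adjusted p = 0.0763), with r = 0.64 (permutation p = 0.0187) and rho = 0.46 (permutation p = 0.113), and r = 0.42 without controls 4 and 6. Sil1 had a slope of 1.07 (SE 0.42, limma adjusted p = 0.109), with r = 0.72 (permutation p = 0.00996) and rho = 0.28 (permutation p = 0.356), and r = -0.17 without controls 4 and 6. Derl1 had a slope of 0.93 (SE 0.37, limma adjusted p = 0.112), with r = 0.68 (permutation p = 0.0127) and rho = 0.21 (permutation p = 0.482), and r = 0.12 without controls 4 and 6. These 8 are of 36 correlations of each kind, and none passed adjustment in the limma fit over all probes.

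Without controls 4 and 6 none of these calls remained. The members then had 0 positive and 2 negative slopes at an unadjusted p under 0.05 (Pdia4 and Pdia5), where 1.93% and 2.33% of all probes did, and the lowest adjusted p of a member was 0.931. Slopes above 0 numbered 21 of 36 over 13 animals and 12 of 36 over 11. The calls thus depended on those 2 arrays. Both hold the highest Tg, so without them Tg ended at 10.33 instead of 10.58. Slopes could then be less precise, with an SE for Pdia3 of 1.34 against 0.84. The loss of calls alone therefore cannot show that a link is absent among the other 11 animals. The slopes of Hspa5, Hyou1, Sil1 and Atf6 were above 0 over 13 animals. Without controls 4 and 6 they were -0.86 (SE 1.56), -2.18 (SE 1.21), -0.45 (SE 0.45) and -0.46 (SE 0.53). Eif2ak3 had the highest slope without both arrays (1.09, SE 0.51, limma adjusted p = 0.931). With the 75th percentile taken over spots, 1 and 2 members had positive and negative slopes at an unadjusted p under 0.05, and with the deposited values 0 and 0.

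Many members stood apart in controls 4 and 6 as well. Against the other 5 controls, 22 members were higher and 14 lower in controls 4 and 6, by more than 0.5 for 14 and 8 of them, while the median over all probes was 0.21 and its quartiles -0.26 and 0.52. Pdia3 was 1.87 lower there, Calr 1.44, Manf 1.07 and Vimp 1.05, and Hyou1 was 1.05 higher, Uggt1 1.03 and Hspa5 0.92. Both arrays had the lowest intensities before scaling, and the part of that in these values was not tested.

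**Figure D5:**
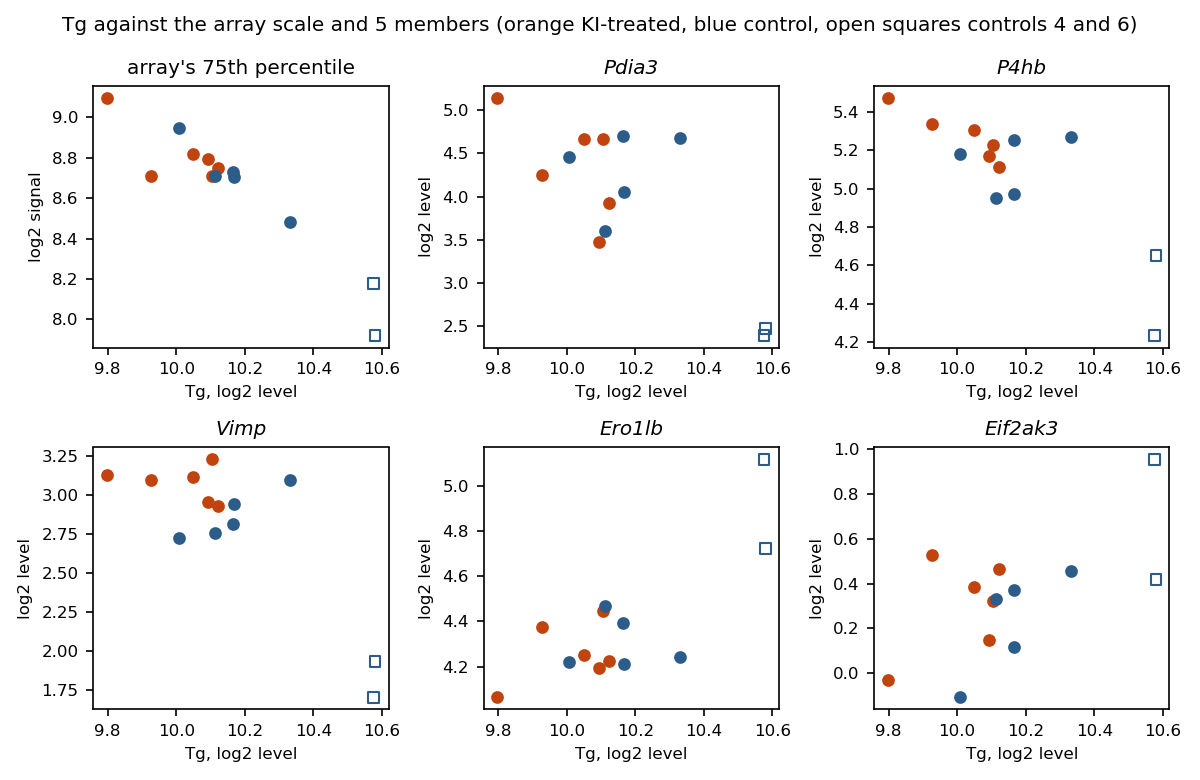
Log2 Tg level (x axis, all panels) of the 13 animals against the log2 75th percentile of the array and against the log2 level of 5 members, with KI-treated animals in orange and controls in blue. Tg falls along the 75th percentile (r = -0.94), which is itself subtracted to give the Tg level. For Pdia3, P4hb, Vimp and Ero1lb controls 4 and 6 (open squares) lie at the far end of Tg, away from the other 11 animals.

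The slope on Tg was lower in the KI-treated than in the control group for 30 of the 36 members and for 13767 of all 25714 probes. At an unadjusted p under 0.05 it was lower for 7 members (19.4%: Hyou1, Pdia4, Sdf2l1, Pdia5, Sec61a1, Dnajb11 and Sil1) and higher for 0. Of all probes 5.44% and 3.47% were. This was not particular to the members. Of the 86 other ER genes 66 had a lower slope, 24 of them (27.9%) at an unadjusted p under 0.05, and 0 were higher at that p. In limma 0 members and 0 probes passed adjustment (lowest adjusted p 0.550). Hyou1 had r = -0.66 with Tg within the 6 KI-treated animals and 0.76 within the 7 controls, and Pdia4 -0.89 and -0.30. Among the controls, Tg was highest in controls 4 and 6, and among the KI-treated animals it was lowest in animal 4 (9.80). The difference in slope was not computed without these arrays.

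Of the 86 other ER genes, 27 had positive and 12 negative slopes on Tg at an unadjusted p under 0.05 (31.4% and 14%, against 18.8% and 12.9% of all probes), and 0 passed adjustment. The 4 with the smallest p had negative slopes. They were Ganab, a glucosidase subunit that trims glycans for the lectin cycle (-1.94, SE 0.43, adjusted p = 0.0614), the isomerase Txndc5 (-1.39, SE 0.33, adjusted p = 0.0614), the retrieval receptor Kdelr3 (-2.10, SE 0.54, adjusted p = 0.0634) and the cargo lectin Lman1 (-1.53, SE 0.41, adjusted p = 0.0636). Without controls 4 and 6 these slopes were -0.50, -0.97, -1.11 and -0.44, and none passed before adjustment.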

How the data were processed

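The intensities deposited by the authors were one-colour Agilent Feature Extraction 10.7.3.1 output, in which gProcessedSignal is background-subtracted, and no genome build applies. The deposited log2 table of the same arrays, made by the authors, followed the rank of the median signal and served as an alternative. Control spots were left out and log2 was taken. The array's 75th percentile over its probes was subtracted, and the spots of a probe were then averaged without outlier-flagged spots. A probe was tested where 6 or more arrays had it well above background (25717 of 45598). Groups came from the sample labels. R 4.3.3 and limma 3.58.1 were used, p-values were adjusted by Benjamini-Hochberg over all tested probes and called under 0.05, together with exact permutation over all 1716 splits for single genes and 100000 permutations for correlations, all two-sided. The Tg slope was fitted with the group in the model and the Tg probes left out. The fits were tested on simulated data. Full statistics are given for the 8 members of smallest p in each comparison, and for 6 other ER genes between the groups and 4 for Tg. The members and lists were chosen with earlier results of these data known. Between 34840 and 41050 of 58717 gene spots lay well above background per array and 0 were saturated, and precision is limited by the number of arrays. Alternatives changed background correction, normalization, filter, slide, scan session, replicate number, array weights, test and arrays used.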

Additional observations from a re-analysis of the deposited data

Results flagged for a closer look

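In 74 groups of values examined, 2 held an animal far from the others of its group, and chance alone gives about 1 in 20. Syvn1, the ubiquitin ligase of the degradation complex, was 4.058 in control 4, where the nearest other control was 3.60. Derl1 was 3.335 in KI-treated animal 4, where the nearest other KI-treated animal was 3.74.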

How the results depend on the processing

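Between the groups, 0 probes passed the adjusted threshold in limma, also in the alternatives that kept all arrays, other than array weights, which gave 50 (2 higher, 48 lower). Leaving out 1 animal gave 0 to 1, with 1 without control 1 or control 2. At an unadjusted p under 0.05, 1 member was higher and 0 lower. Higher members numbered 2 with quantile normalization, with normexp and the 75th percentile, with normexp and quantile, with the deposited log2 values, with the 75th percentile over spots, with probes well above background on all arrays, and without controls 4 and 6. They numbered 7 with the slide and 7 with the scan session as a block. Lower members numbered 2 with array weights, 1 with a t-test, the test named in the study's results, and 1 without controls 4 and 6. Leaving out 1 animal gave 0 to 4 higher (0 without KI-treated animal 6 or control 6, 4 without KI-treated animal 2) and 0 to 3 lower (3 without control 1). That t-test called 0 probes under 0.05 after Benjamini-Hochberg adjustment (the study's threshold is a Q-value), and at an unadjusted p under 0.05 it had 1219 higher and 1923 lower.

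For the slope on Tg, 0 members passed adjustment. With normexp and the 75th percentile 1 positive and 4 negative slopes did, with array weights 1 and 1, without the group term 3 and 6, and with probes well above background on all arrays 0 and 1. Leaving out 1 animal gave 0 to 1 positive and 0 to 5 negative, the highest without control 2. At an unadjusted p under 0.05 the 9 positive and 7 negative slopes became 0 and 0 with the deposited values, 1 and 2 with the 75th percentile over spots, 4 and 4 with the slide as a block, 5 and 4 with array weights, and 0 and 2 without controls 4 and 6. The session block gave 11 and 2. Leaving out 1 animal gave 0 to 9 positive and 2 to 9 negative, and the lowest of both came without control 4. The slope turned with the deposited values for Pdia3 (0.8445), P4hb (0.2928), Ero1lb (-0.007361), Eif2ak3 (-0.03133), Calr (0.7684) and Derl1 (-0.4532), and without controls 4 and 6 for Vimp (0.3216) and Sil1 (-0.4513). The causes were not tested. Quantile normalization could give no Tg value, since Tg is the brightest probe on 12 of 13 arrays and takes 1 common value there. The difference in slope between the groups had 0 members past adjustment in 4 alternatives. The median correlation between members was 0.36 and ran from 0.259 to 0.498.

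Replicate numbers are shared between the groups, but the correlations of same-numbered animals ran from -0.218 to 0.0581 and no animal was closest to its own number. With the replicate number as a block, 0 probes passed adjustment (1063 higher and 1293 lower before it), 1 member was higher and 0 lower, and the Tg slopes were 6 positive and 6 negative. The 75th percentile over spots and the omission of controls 4 and 6 were chosen after seeing the data.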
